A study of Mus musculus with 12 samples.

Results

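The genes described here are the Ifi200 family, also called the PYHIN family, of mouse chromosome 1, given by a list of 10 symbols (Aim2, Ifi203, Ifi204, Ifi206, Ifi208, Ifi209, Ifi213, Ifi214, Mndal and Pyhin1). Pyhin1 is recorded by RefSeq as a synonym of Ifi209, so the list holds 9 gene IDs of the 39179 counted. All 9 passed the filter on low counts, which 12189 IDs passed. The members were chosen by symbol, as relatives by sequence, and no threshold on a measured value was used. The family itself was picked with earlier results of these libraries known, so counts over its members describe the data and lend no independent weight to a direction.

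PYHIN proteins pair a pyrin domain, which binds other pyrin domains, with a HIN domain, which binds DNA. AIM2 recognises double-stranded DNA in the cytosol and joins the adaptor ASC and caspase-1 in an inflammasome, the complex that matures IL-1 family cytokines and opens gasdermin D pores. Several other members are nuclear, most are induced by interferons, and mouse p204, the product of Ifi204, has been linked to the STING pathway, as has its human relative IFI16.

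RNA was measured in mouse CD4 T cells with the OT-II T cell receptor transgene, which recognises an ovalbumin peptide, in 12 libraries. The 4 groups of 3 libraries were Th17 cells without NKG2D (Th17 KO), wild-type Th17 cells (Th17 WT), Th1 cells without NKG2D (Th1 KO) and wild-type Th1 cells (Th1 WT). NKG2D is an activating receptor encoded by Klrk1. Naive cells of OT-II mice and of OT-II x NKG2D-/- mice, taken from spleen and lymph nodes, shared cultures with antigen-presenting cells in the presence of the peptide and anti-CD28. They were polarised on day 0 and again on day 5, and harvested on day 8. Th17 cultures contained IL-1b, IL-6, IL-23, anti-IFNg and anti-IL4, with IL-12 from the second stimulation onwards. Th1 cultures contained IL-2, IL-12 and anti-IL-4. KO cells were sorted as Thy1.1+ and WT cells as Thy1.2+ and NKG2D+, so effects of genotype, of the gate on NKG2D and of the Thy1 allele cannot be told apart. The labels do not say whether the 3 libraries of a group came from separate cultures or animals, and p-values measure only the spread between them.

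Library totals ran from 9108203 to 12688637 counts in 9 libraries. The other 3, Th17 KO 2, Th17 WT 2 and Th17 WT 3, held 1722228, 2731909 and 1647232 counts, and a single ID took 51%, 18.3% and 48.1% of them, against at most 0.00831% elsewhere. A count of 0 allows 3 counts, or 0.208 to 3.15 CPM (counts scaled to library size) depending on the library; these floors cover counting error only. Klrk1 had 1.6 to 3.35 CPM in Th17 KO, 130 to 141 CPM in Th17 WT, 3.31 to 5.63 CPM in Th1 KO and 128 to 161 CPM in Th1 WT. The CD4 T cell markers Cd3e, Cd3g, Cd4, Cd28 and Thy1 summed to between 1580 and 2270 CPM in every library. The Th17 markers (Il17a, Il17f, Il23r and Ccr6) summed to 88.2 to 96.3 CPM in Th17 KO, 41.1 to 49.7 CPM in Th17 WT, 0.323 to 1.11 CPM in Th1 KO and 0.278 to 0.392 CPM in Th1 WT. Most of the sum in Th17 cells was Il23r, with means of 71.1 CPM in KO and 41.4 CPM in WT. In the same order Il17f averaged 11.6 and 2.38 CPM, Il17a 6.51 and 0.923 CPM, and Ccr6 1.79 and 0.487 CPM. Il17a had 28, 1 and 0 reads in Th17 WT. The Th1 markers (Tbx21, Ifng, Cxcr3 and Il12rb2) summed to 658 to 720 CPM in Th17 KO, 888 to 1050 CPM in Th17 WT, 1000 to 1230 CPM in Th1 KO and 1170 to 1440 CPM in Th1 WT. Of these markers only Ifng had a lower mean in Th17 than in Th1 cells at both genotypes. Cxcr3 averaged 19.2 CPM in Th17 KO and 16.8 in Th17 WT, against 1.31 in Th1 KO and 0.774 in Th1 WT. Il12rb2 averaged 545 and 661 CPM in Th17 KO and WT, against 387 and 442 CPM in Th1 KO and WT. Tbx21 averaged 63.6 and 94 CPM, against 55.3 and 74 CPM.

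On GRCm38 the listed genes lie together on chromosome 1, from base 173350879 to base 173942672. In order of position they are Aim2 (chr1:173350879-173466040, plus strand), Ifi206 (chr1:173468485-173491041, minus), Ifi214 (chr1:173519717-173535957, minus), Ifi213 (chr1:173566283-173599274, minus), Ifi209 (chr1:173630917-173647928, plus), Ifi208 (chr1:173673675-173698395, plus), Ifi204 (chr1:173747293-173766943, minus), Mndal (chr1:173849126-173942491, minus) and Ifi203 (chr1:173920407-173942672, minus). All 9 are annotated as protein coding. RefSeq gives Pydc3 and Pydc4, names for pyrin-domain genes, as synonyms of Ifi208 and Ifi213. The counts are of reads over exons, and the only exon bases shared between listed genes are 37 bases of Mndal and Ifi203.

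**Figure D1:**
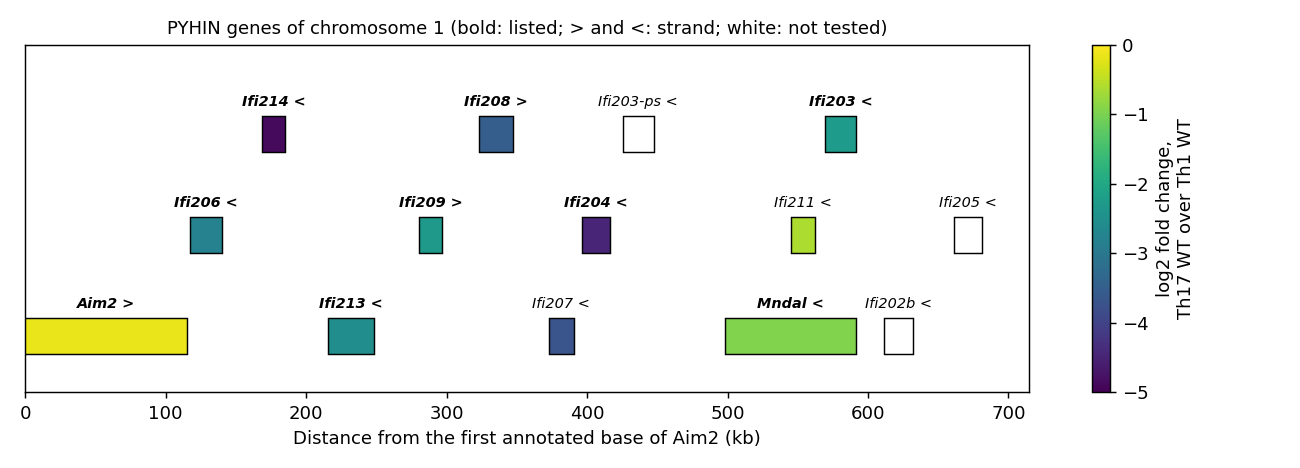
Map of the PYHIN genes of chromosome 1, with the distance in kb from the first annotated base of Aim2 on the x axis, each gene a box to scale in 1 of 3 rows for legibility, and the colour giving the log2 fold change of Th17 WT over Th1 WT. Aim2 at the left end is close to 0 (-0.16), its neighbours Ifi206 and Ifi214 are at -2.79 and -4.87, and white boxes mark 3 genes with too few counts to test.

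The promoters of the family are shown first because several of them fall into groups of near-copies. The sequence shared by transcripts is given further below. RefSeq promoter windows of GRCm38.p6, from 250 bases before to 50 bases after a start, were at hand for 8 of the 9 genes. They were searched on both strands for the interferon response element core, which is GAAA, any 2 bases and GAAA again, and for the STAT-binding GAS element TTCNNNGAA. The interferon core stood in the windows of 6 of the 8 genes (Ifi203, Ifi206, Ifi208, Ifi213, Ifi214 and Mndal) and in 3.44% of all 32851 promoter windows. The GAS element stood in none of the 8, so the 2 motifs did not overlap there, and in 8.3% of all windows. Ifi203 and Mndal have 2 windows each; a window of Ifi203 held no core, and the second window of Mndal held a core of other letters on the opposite strand. Each of the 6 genes had 1 window in which the core read GAAATCGAAA, a string found in 16 of the 32851 windows (0.0487%), and 7 of those are PYHIN windows, with Ifi207. In the lines below, 30 bases around it are given 5′ to 3′ on the gene's strand, with the 10 bases of the element in capitals. The Ifi209 line shows the nearest string in that promoter, which differs by G1T, counted from 1 at the 5′ end of the 10 bases. The unlisted Ifi211 differs by C6T and still matches the core.

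Ifi206, chr1:173491339-173491368, minus strand: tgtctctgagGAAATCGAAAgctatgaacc
Ifi208, chr1:173673597-173673626, plus strand: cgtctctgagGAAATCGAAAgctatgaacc
Ifi213, chr1:173599326-173599355, minus strand: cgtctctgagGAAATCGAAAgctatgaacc
Ifi214, chr1:173536017-173536046, minus strand: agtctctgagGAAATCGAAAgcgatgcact
Ifi209, chr1:173630770-173630799, plus strand: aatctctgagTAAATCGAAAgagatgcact
Ifi203, chr1:173942508-173942537, minus strand: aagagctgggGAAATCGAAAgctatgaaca
Mndal, chr1:173880204-173880233, minus strand: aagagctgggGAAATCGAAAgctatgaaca
Ifi211, chr1:173913064-173913093, minus strand: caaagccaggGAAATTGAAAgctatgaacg

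The lines group as the promoters do over their whole length. Ifi206 and Ifi208 were identical at 279 of 281 aligned bases (99.3%), and Ifi213 was 98.9% identical to each of them. Ifi203 and Mndal were 97.6% identical, and Ifi209 and Ifi214 were identical at 287 of 299 bases (96%). The Aim2 window held neither motif, and its nearest string to the shared one had 4 mismatches. A match is a run of letters and not a shown binding site, and a missing match says only that the letters are absent from this window. The 250 bases before the start are given for Ifi214, which is described first among the values, for its near-copy Ifi209, and for Aim2. Aim2 is the gene with the smallest difference between Th17 and Th1 cells. Capitals mark the shared 10 bases in Ifi214. In Ifi209 they mark the nearest string, which differs by G1T and does not match the core.

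Ifi214, chr1:173535958-173536207, minus strand: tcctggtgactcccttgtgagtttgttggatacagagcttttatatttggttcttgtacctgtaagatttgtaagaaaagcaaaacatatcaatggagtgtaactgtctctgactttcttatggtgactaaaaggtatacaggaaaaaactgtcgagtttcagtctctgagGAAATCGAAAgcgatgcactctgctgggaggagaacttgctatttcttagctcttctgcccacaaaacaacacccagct
Ifi209, chr1:173630609-173630858, plus strand: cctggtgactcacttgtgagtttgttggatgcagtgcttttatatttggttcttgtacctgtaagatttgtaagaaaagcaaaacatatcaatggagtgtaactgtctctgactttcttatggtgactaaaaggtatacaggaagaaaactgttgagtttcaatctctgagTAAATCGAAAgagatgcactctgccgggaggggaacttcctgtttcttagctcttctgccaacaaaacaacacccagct
Aim2, chr1:173420354-173420603, plus strand: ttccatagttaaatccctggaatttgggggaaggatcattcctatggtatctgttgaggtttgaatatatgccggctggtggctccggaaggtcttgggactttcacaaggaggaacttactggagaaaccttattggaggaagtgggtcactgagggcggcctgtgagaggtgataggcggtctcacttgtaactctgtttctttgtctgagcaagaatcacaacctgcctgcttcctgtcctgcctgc

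Transcripts of the family also share sequence, which bears on every value that follows. Of the 75-base stretches in a gene's annotated transcripts, the share also found in another gene was 23.1% for Ifi209 (all with Ifi214), 17.6% for Ifi206, 13.2% for Ifi204, 11.8% for Ifi208, 11.1% for Mndal, 10% for Ifi214, 8.07% for Ifi213, 5.71% for Ifi203 and 0% for Aim2. How reads with several matching places were counted is not given in the sources used here, so levels of all members but Aim2 are uncertain. Such reads could have been dropped or assigned to a partner gene. The shares cover exact matches only and do not bound the error, because a scarcer gene can receive reads of a more abundant partner. In Th1 WT, for example, Ifi209 averaged 143 CPM and its partner Ifi214 47.1 CPM.

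Levels of different genes were compared as CPM per kb of exon. In Th1 WT cells Ifi209 stood highest at 40.2 ± 3.42 CPM per kb (SD, n = 3), ahead of Ifi204 at 32.6 ± 4.1, Mndal at 19.8 ± 0.951, Ifi206 at 17.5 ± 1.45 and Ifi203 at 11 ± 0.462. Aim2 followed at 9.41 ± 0.204, then Ifi214 at 5.82 ± 0.368, Ifi213 at 1.52 ± 0.157 and Ifi208 at 1.04 ± 0.0486. Ifi209 and Ifi204, and likewise Mndal and Ifi206, differed by about the sum of their SDs. Th1 KO cells kept Ifi209 (28.2 ± 1.34), Ifi204 (20.6 ± 2.82) and Mndal (14.2 ± 0.519) as the highest, all on the same scale.

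The order was another in Th17 cells. Mndal was highest in Th17 KO at 9.33 ± 4.37 CPM per kb, followed, within its SD, by Aim2 at 8.39 ± 0.133 and then Ifi209 at 5.46 ± 1.22. In Th17 WT it was Mndal at 11.6 ± 2.57, Ifi209 at 9.5 ± 2.5 and Aim2 at 8.49 ± 1.47, each within the SD of its neighbour in this order. Ifi204 was at 0.702 ± 0.252 in Th17 KO and 1.83 ± 0.942 in Th17 WT, below Ifi203 and Ifi206 in both. The least abundant were Ifi208, Ifi213 and Ifi214, at 0.0967 to 0.305 CPM per kb in the Th17 groups. In CPM, Aim2 made up 28% of the summed family in Th17 KO, 20.6% in Th17 WT, 8.38% in Th1 KO and 5.95% in Th1 WT.

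**Figure D2:**
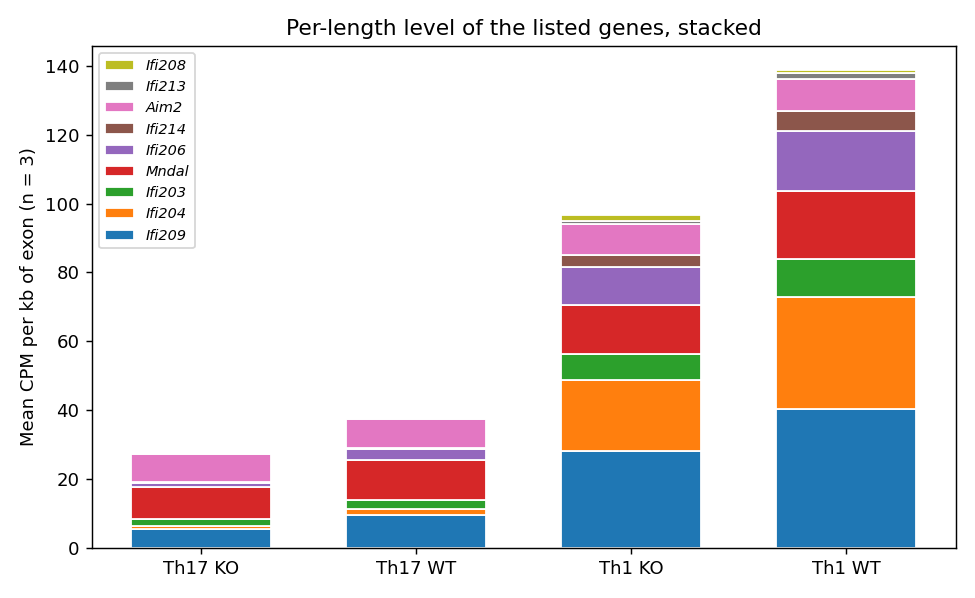
Mean CPM per kb of exon of the 9 listed genes, stacked in 1 bar per group (n = 3 libraries each; no error shown). Ifi209 and Ifi204 fill the largest segments of the Th1 bars, while the Th17 bars consist mainly of Mndal, Aim2 and Ifi209.

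The first question the design raises is how the family differs between Th17 and Th1 cells. Of the 9 genes, 8 were lower in Th17 cells at both genotypes, and Aim2 did not pass the test. The summed family had 78, 132 and 105 CPM in Th17 KO and 111, 161 and 160 CPM in Th17 WT, against 360, 380 and 410 CPM in Th1 KO and 510, 577 and 575 CPM in Th1 WT. In bulk RNA, fewer cells that express a gene and less RNA per cell cannot be told apart. Among all tested genes, 26.7% were lower in Th17 than in Th1 cells in KO and 23.6% in WT by the same rule, an adjusted p under 0.05 in edgeR's quasi-likelihood test over all genes. The median log2 fold change of the 9 was -2.73 in KO and -2.56 in WT, and that of all genes was 0.001 and -0.008.

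Of the 9 genes Ifi214 and Ifi204 had the lowest log2 fold changes of Th17 over Th1 at both genotypes with all 12 libraries. Ifi214 had 0.623, 1.05 and 1.09 CPM in Th17 KO and 0.932, 4.35 and 2.08 CPM in Th17 WT, against 25.6, 28.8 and 29.6 CPM in Th1 KO and 44.3, 50.2 and 47 CPM in Th1 WT. Every Th17 library lay far under every Th1 library. Its log2 fold change of Th17 over Th1 was -5.01 ± 0.23 (SE) in KO and -4.87 ± 0.23 in WT (adjusted p = 4.24e-14 and 1.01e-13, edgeR), that is 32.3-fold and 29.2-fold lower in Th17. The Th17 values rest on 8, 1 and 13 reads in KO and on 11, 11 and 2 reads in WT. In WT the log2 fold change was -3.66 without Th17 WT 1, -5.51 without Th17 WT 2, -5.64 without the 3 shallow libraries and -5.47 with a term for them, and the call held in all 20 alternatives.

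Ifi204, whose protein p204 takes part in responses to interferon and to DNA, lay within about 1 SE of Ifi214 in KO. It had 1.87, 2.1 and 3.53 CPM in Th17 KO and 4.83, 4.35 and 10.4 CPM in Th17 WT, against 61.6, 78.7 and 79.4 CPM in Th1 KO and 100, 119 and 129 CPM in Th1 WT. The cell types did not overlap at either genotype. The log2 fold change was -4.79 ± 0.23 in KO and -4.49 ± 0.23 in WT (edgeR adjusted p = 5.26e-09 and 1.39e-08), or 27.6-fold and 22.5-fold lower in Th17 cells. Per length, Ifi204 held the place next to the top of the listed genes in Th1 cells and stood below Mndal, Aim2, Ifi209, Ifi203 and Ifi206 in Th17 cells.

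Ifi206, Ifi208 and Ifi213, whose promoters are near-copies, were all lower in Th17 cells, from different levels. Ifi206 had 2.41, 5.25 and 4.54 CPM in Th17 KO and 6.19, 13.1 and 8.31 CPM in Th17 WT, against 29.5, 28.3 and 43 CPM in Th1 KO and 48.5, 55.1 and 57 CPM in Th1 WT. Its log2 fold change was -3.25 ± 0.30 in KO and -2.79 ± 0.30 in WT (edgeR adjusted p = 7.68e-06 and 2.46e-05). No Th17 library reached a Th1 library. Without Th17 WT 1 the WT value was -2.20.

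Ifi208 and Ifi213, both named for a pyrin domain, had the lowest levels per length of the list in Th1 cells. Ifi208 had 0.311, 1.05 and 0.504 CPM in Th17 KO and 0.339, 1.19 and 0 CPM in Th17 WT, against 5.48, 7.02 and 10.5 CPM in Th1 KO and 5.15, 5.56 and 5.62 CPM in Th1 WT. Ifi213 had 0.779, 0 and 1.26 CPM in Th17 KO and 1.27, 3.96 and 1.04 CPM in Th17 WT, against 6.52, 6.46 and 6.54 CPM in Th1 KO and 11, 9.17 and 11.1 CPM in Th1 WT. The value of 0 for Ifi208 in Th17 WT 3 allows up to 3.11 CPM, and that for Ifi213 in Th17 KO 2 allows up to 3.15 CPM. Both genes stayed lower in every Th17 library than in any Th1 library. Ifi208 gave a log2 fold change of -4.12 ± 0.37 in KO and -3.52 ± 0.46 in WT, and Ifi213 gave -2.73 ± 0.30 and -2.56 ± 0.29, with edgeR adjusted p of at most 5.62e-07. Without Th17 WT 1 the WT values were -2.65 for Ifi208 and -1.74 for Ifi213.

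Ifi209 and Ifi203 kept a clear level in Th17 cells. Ifi209, whose human relative PYHIN1 is also called IFIX, had 14.6, 23.1 and 20.3 CPM in Th17 KO and 23.5, 39.2 and 38.4 CPM in Th17 WT, against 99.5, 95.5 and 105 CPM in Th1 KO and 129, 153 and 146 CPM in Th1 WT. The log2 fold change was -2.49 ± 0.18 in KO and -2.29 ± 0.18 in WT (edgeR adjusted p = 3.45e-07 and 1.21e-06). Its promoter is 96% identical to that of Ifi214, and its level was 5.62-fold lower in Th17 KO and 4.9-fold lower in Th17 WT, beside 32.3-fold and 29.2-fold for Ifi214; the gap between the 2 genes was not tested. Ifi203 had 7.79, 18.9 and 14.1 CPM in Th17 KO and 11.9, 24.9 and 16.6 CPM in Th17 WT, against 46.9, 52.3 and 52.1 CPM in Th1 KO and 70.7, 76.9 and 73.8 CPM in Th1 WT. Its log2 fold change was -2.16 ± 0.24 in KO and -2.28 ± 0.26 in WT (edgeR adjusted p = 4.01e-05 and 5.45e-05), again with no overlap.

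Mndal, named for human MNDA, a nuclear antigen of myeloid cells, showed a smaller difference. It had 20.7, 51.5 and 29.4 CPM in Th17 KO and 31.5, 46.3 and 48.8 CPM in Th17 WT, against 51.1, 50 and 53.7 CPM in Th1 KO and 68, 73.7 and 74.2 CPM in Th1 WT. Th17 KO 2, a shallow library, lay among the Th1 KO libraries, while the WT groups did not overlap. The log2 fold change was -0.94 ± 0.21 in KO and -0.95 ± 0.22 in WT (edgeR adjusted p = 0.00392 and 0.00546). The WT call was lost without Th17 WT 1 (adjusted p = 0.0895), which leaves 7 of 9 genes lower in that fit. Beside it, Ifi203, with a promoter 97.6% identical, gave -2.28 in WT.

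Aim2, the DNA receptor of the inflammasome, was the exception. It had 28.9, 29.4 and 29.8 CPM in Th17 KO and 30.8, 24.1 and 34.3 CPM in Th17 WT, against 34, 32.4 and 29.9 CPM in Th1 KO and 33.2, 33.5 and 32.1 CPM in Th1 WT. The Th17 KO libraries lay just under the Th1 KO libraries, with 29.8 and 29.9 CPM at the nearest, and the WT groups overlapped. The log2 fold change was -0.13 ± 0.09 in KO (95% interval -0.31 to 0.05, edgeR adjusted p = 0.245) and -0.16 ± 0.10 in WT (-0.36 to 0.04, adjusted p = 0.2). Both intervals end short of the Mndal value. CPM ranges did not overlap, with Th17 lower, for 8 of the 9 genes in KO and for 8 in WT, a pattern seen in 28.6% and 27.5% of all tested genes.

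**Figure D3:**
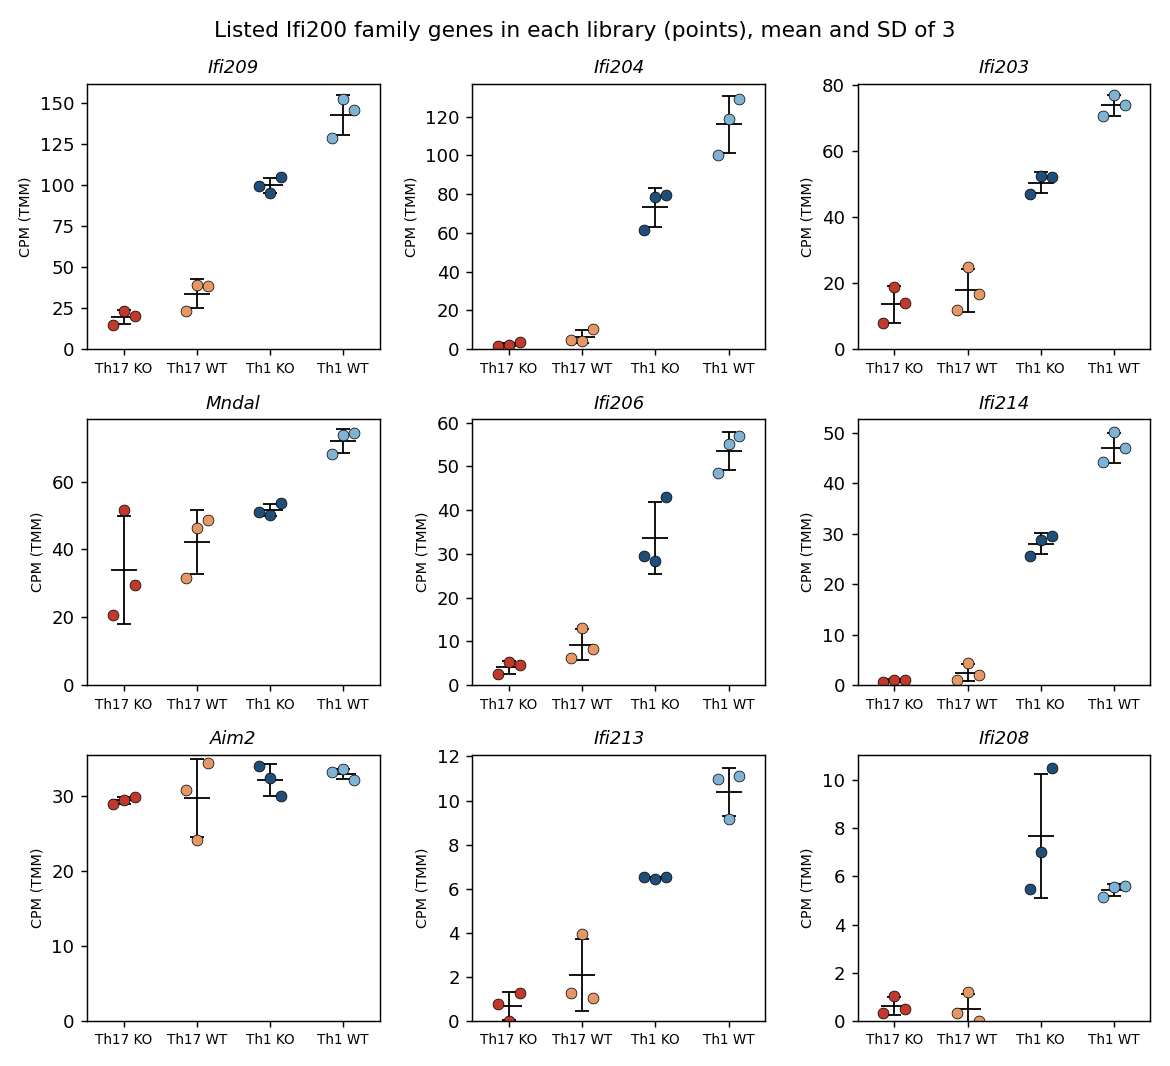
CPM of each listed gene in each of the 12 libraries (points), with the mean and SD of 3 libraries as bars, groups in the order Th17 KO, Th17 WT, Th1 KO and Th1 WT, and a y axis from 0 in each panel. In 7 panels all Th17 libraries lie under all Th1 libraries; in the Mndal panel Th17 KO 2 reaches the Th1 KO libraries, and in the Aim2 panel all 12 points lie between 24.1 and 34.3 CPM.

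The second question is what the loss of NKG2D goes with. In Th1 cells 3 of the 9 genes were lower in KO (Ifi214, Ifi204 and Ifi213) and none was higher, while 2.92% of all tested genes were lower. The median log2 fold change of KO over WT was -0.55 for the 9 genes and -0.002 for all genes. CPM ranges of the 2 genotypes did not overlap for 7 genes, all lower in KO, a pattern seen in 13.4% of tested genes. The exceptions were Aim2 and Ifi208. The count of lower genes varied with the fit: it was 7 with limma-voom and with a term for the 3 shallow libraries, 5 without the filter or with the Th1 groups alone, 6 without Th17 KO 1 or Th17 WT 2, and 5 without Th17 WT 1. It was 4 without the 3 shallow libraries, and 2 with DESeq2 and without any 1 of Th1 KO 1, Th1 KO 2, Th1 WT 1, Th1 WT 2 or Th1 WT 3.

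Ifi214, with 25.6 to 29.6 CPM in Th1 KO and 44.3 to 50.2 CPM in Th1 WT, had a log2 fold change of -0.75 ± 0.11 (edgeR adjusted p = 0.000127). That is 1.68-fold lower in KO. This call held in all 20 alternatives, with adjusted p from 8.25e-14 to 0.00327. Ifi204 was at 61.6 to 79.4 CPM in Th1 KO and 100 to 129 CPM in Th1 WT, a log2 fold change of -0.66 ± 0.13 (adjusted p = 0.0124). Its call was lost in 4 alternatives, among them without Th1 WT 2 and without the 3 shallow libraries, at an adjusted p of up to 0.128. Ifi213 was at 6.46 to 6.54 CPM in Th1 KO and 9.17 to 11.1 CPM in Th1 WT, a log2 fold change of -0.68 ± 0.18 (adjusted p = 0.0237). That call was lost with DESeq2 and without any 1 of Th1 KO 1, Th1 KO 2, Th1 KO 3, Th1 WT 1 or Th1 WT 3, at an adjusted p of up to 0.172.

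The other Th1 members did not pass at the chosen threshold. Ifi209 gave -0.51 ± 0.13 (edgeR adjusted p = 0.0577), Ifi206 -0.67 ± 0.18 (0.0779), Ifi203 -0.55 ± 0.17 (0.136) and Mndal -0.48 ± 0.17 (0.188). In each of these 4 genes every Th1 KO library lay under every Th1 WT library. Ifi208 pointed the other way, at 5.48 to 10.5 CPM in Th1 KO and 5.15 to 5.62 CPM in Th1 WT, with a log2 fold change of 0.50 ± 0.21 (adjusted p = 0.197) and ranges that overlapped. Aim2 gave -0.04 ± 0.08, with a 95% interval of -0.20 to 0.12.

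In Th17 cells none of the 9 genes passed the test between genotypes, while 5.83% of all tested genes did and 4.02% were lower in KO. By edgeR 3 of the 9 had an unadjusted p under 0.05, DESeq2 called 2 lower, limma-voom called 0, and edgeR without the low-count filter called 3. Without Th17 WT 1 the count was 2 and without Th1 KO 3 it was 1. The ranges of 3 genes did not overlap, with KO lower, as those of 9.59% of tested genes. These were Ifi204 at -0.96 ± 0.41 (edgeR adjusted p = 0.245), Ifi206 at -1.13 ± 0.45 (0.221) and Ifi209 at -0.71 ± 0.22 (0.1), all as log2 fold changes.

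The shallow libraries touch these values. In counts, Ifi204 rested on 24, 2 and 42 reads in Th17 KO and on 57, 11 and 10 reads in Th17 WT, and Ifi209 on 188, 22 and 242 reads in Th17 KO and 277, 99 and 37 reads in Th17 WT. The summed family was highest in the shallow library of Th17 KO (132 CPM, against 78 and 105 CPM in the deep ones) and in the shallow libraries of Th17 WT (161 and 160 CPM, against 111 CPM in the deep one). WT holds 2 of the 3 shallow libraries. The median log2 fold change of the 9 genes was -0.71 with all libraries, -0.41 with a term for the shallow ones and -0.33 without them, and Ifi214 moved from -0.89 to -0.14. Aim2 gave -0.01 ± 0.11 (95% interval -0.22 to 0.21).

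The genotype difference itself was compared between the cell types. None of the 9 genes passed that interaction test in edgeR, DESeq2 or limma-voom, none had an unadjusted p under 0.05 in any of them, and 0.591% of all tested genes passed. The difference of log2 fold changes, Th17 minus Th1, ran from -0.60 for Ifi208 (95% interval -2.20 to 0.99) to 0.12 for Ifi203 (-0.61 to 0.85). For Ifi214 it was -0.14 (-1.07 to 0.79) and for Aim2 0.03 (-0.23 to 0.30). After Aim2 the narrowest interval was that of Ifi209 (-0.70 to 0.30), and all 9 intervals held 0.

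**Figure D4:**
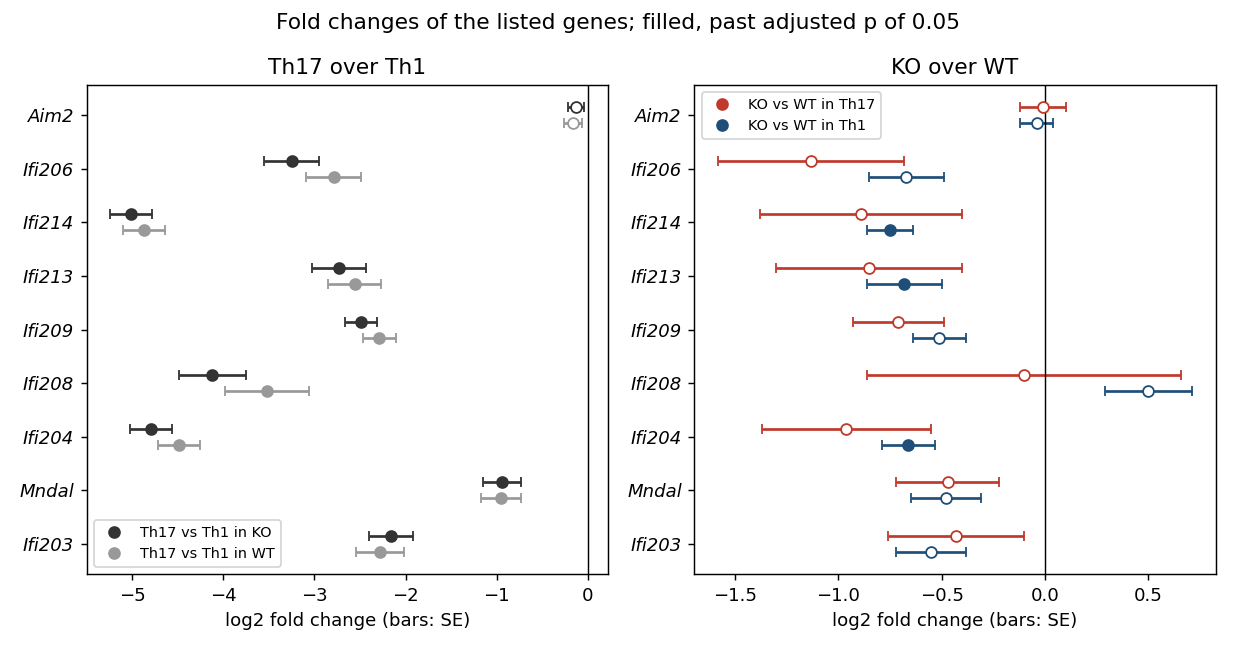
Log2 fold changes with SE bars of the 9 listed genes, in order of position on chromosome 1 from Aim2 at the top, for Th17 over Th1 in KO and WT (left) and KO over WT in Th17 and Th1 (right), with filled points past an adjusted p of 0.05. On the left 8 genes are filled at both genotypes and Aim2 is open next to 0; on the right only Ifi214, Ifi213 and Ifi204 in Th1 are filled, and the Th17 bars are wider.

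The contrast of Th17 with Th1 in KO and that in WT rest on separate libraries, whereas a genotype contrast and a cell-type contrast share the libraries of 1 group. All libraries were in 1 fit, and which KO and WT libraries shared a culture is not stated. The KO and WT contrasts are therefore not known to be independent. Across the 12 libraries, 8 of the 9 genes moved together as log2 CPM: Pearson r with the mean of the other members was at least 0.98 for Ifi203, Ifi204, Ifi206, Ifi209 and Ifi214, 0.83 for Ifi208 and Ifi213, 0.82 for Mndal and 0.43 for Aim2. The points share the split between Th17 and Th1 libraries and the gap in depth. Among 9306 other genes with a mean of at least 5 CPM, the 5 with the most similar pattern were Ccna2 (r = 0.9942), Pcna (0.9931), Prc1 (0.9913), Kif11 (0.9901) and Cdk1 (0.9901). All 5 are known from DNA replication or cell division. The genes ranked 6 to 10, with r from 0.9898 to 0.9893, were mixed. Bub1b and Ncaph are of that kind, while Atp10a, Csf1 and Tnfrsf1b are not known for that role. The fold changes of the first 5 were smaller than those of most members: Ccna2 averaged 195 CPM in Th17 KO, 230 in Th17 WT, 361 in Th1 KO and 417 in Th1 WT.

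The cluster holds 5 further PYHIN genes that are not on the list. Ifi211, with 63.6% of its 75-base stretches also found in other genes, had 3.82, 6.3 and 3.86 CPM in Th17 KO and 6.27, 9.1 and 10.4 CPM in Th17 WT, against 5.2, 7.57 and 4.93 CPM in Th1 KO and 10.7, 11.7 and 11.4 CPM in Th1 WT. It was lower in KO than in WT, at -0.91 ± 0.16 in Th1 (edgeR adjusted p = 0.000991, a call held in all 20 alternatives) and -0.88 ± 0.25 in Th17 (adjusted p = 0.0332, lost in 9 of 20 alternatives, with Th17 KO 1, Th17 KO 3, Th17 WT 2 or Th17 WT 3 left out among them, at up to 0.202). Ifi211 was also lower in Th17 than in Th1 cells, at -0.59 ± 0.21 in KO and -0.62 ± 0.20 in WT (edgeR adjusted p = 0.0219 and 0.0141). The KO call was lost in 4 of 20 alternatives, and the WT call in 2, with DESeq2 and without Th17 WT 1. Ifi207 had at most 3.07 CPM in Th1 libraries and 1, 0 and 0 reads in Th17 KO and 1, 1 and 0 reads in Th17 WT. Ifi202b and Ifi205 had 2 reads each in all 12 libraries, and the pseudogene Ifi203-ps had 25. Of the 29 other annotated genes within 500 kb of the listed ones, 24 had no read and none passed the filter, the highest being Cadm3 with 13 reads over all libraries.

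The partners of AIM2 and other sensors of nucleic acids moved in both directions. Of 30 such genes 27 were tested. Between Th17 and Th1 cells 14 were higher and 6 lower in KO, and 11 were higher and 6 lower in WT, with median log2 fold changes of 0.27 and 0.20. In all tested genes the shares were 26.9% higher and 26.7% lower in KO, and 23.5% and 23.6% in WT. Pycard, which encodes ASC, had 55.1, 43.1 and 51.7 CPM in Th17 KO and 54.9, 52.2 and 40.5 CPM in Th17 WT, against 46, 42.5 and 41.7 CPM in Th1 KO and 46.5, 46.2 and 43.8 CPM in Th1 WT. Its log2 fold change was 0.27 ± 0.08 in KO (edgeR adjusted p = 0.00626) and 0.20 ± 0.09 in WT (0.064). The inflammasome protease Casp1 was higher in Th17 cells in KO (0.79 ± 0.08, adjusted p = 1.8e-08) and gave 0.17 ± 0.09 in WT (0.123). Gsdmd, the pore-forming substrate, was higher in KO (0.32 ± 0.09, adjusted p = 0.00374) and gave 0.17 ± 0.09 in WT (0.159). In KO the Pycard call was lost without Th17 KO 1 (adjusted p = 0.0792) and the Gsdmd call without Th17 KO 3 (0.0821). Casp4 (1.13 ± 0.08 in KO and 0.74 ± 0.09 in WT) was also higher in Th17 cells. So were Samhd1 (0.56 ± 0.06 and 0.64 ± 0.06) and Ikbke (0.71 ± 0.09 and 0.66 ± 0.10). Zbp1 was lower in Th17 cells (-0.24 ± 0.08 in KO and -0.70 ± 0.09 in WT).

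The cGAS-STING pathway split. Cgas, the enzyme that senses cytosolic DNA, was lower in Th17 cells, at 7.48, 13.7 and 10.3 CPM in Th17 KO and 8.39, 9.1 and 13.5 CPM in Th17 WT, against 23.9, 21.3 and 23.3 CPM in Th1 KO and 21.8, 18.6 and 27.1 CPM in Th1 WT. Its log2 fold change was -1.32 ± 0.16 in KO and -1.33 ± 0.19 in WT (edgeR adjusted p = 4.16e-07 and 3.55e-06), and between genotypes it was 0.02 in both cell types. Tmem173, which encodes STING, was higher in Th17 cells by 0.28 ± 0.08 in KO and 0.35 ± 0.08 in WT (adjusted p = 0.00365 and 0.000631). Il1b, a cytokine that caspase-1 matures, was at 1.02 to 3.16 CPM in Th17 libraries and at most 0.0726 CPM in Th1 libraries. Il18, on the same list, was at 3.11 to 9.34 CPM in Th17 libraries and 0.903 to 1.45 CPM in Th1 libraries. Its log2 fold change was 1.83 ± 0.29 in KO and 2.20 ± 0.29 in WT (edgeR adjusted p = 8.86e-06 and 5.39e-07).

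Between genotypes, 4 of the 27 sensing genes were lower in Th1 KO and none was higher, and 2 were lower in Th17 KO and none was higher. Among all tested genes 2.92% were lower and 1.69% higher in Th1 KO, and 4.02% were lower and 1.81% higher in Th17 KO. The 4 in Th1 were Zbp1, a sensor of Z-form nucleic acids, Casp1, Samhd1 and Casp4. Zbp1 had 37.3, 35.6 and 41.3 CPM in Th1 KO, against 63.7, 62.8 and 64.3 CPM in Th1 WT, a log2 fold change of -0.74 ± 0.07 (edgeR adjusted p = 1.03e-07). Casp1 gave -0.38 ± 0.08 (adjusted p = 0.00438), Casp4 -0.32 ± 0.08 (0.0189) and Samhd1, a dNTP-cleaving enzyme that restricts viruses, -0.26 ± 0.06 (0.0131). In Th17 cells Samhd1 was again lower in KO (-0.34 ± 0.07, edgeR adjusted p = 0.00158), as was the RNA receptor Tlr7 (-1.97 ± 0.57, 0.0377), at 0 to 0.504 CPM in Th17 KO and 1.04 to 3.56 CPM in Th17 WT. Tlr7 rests on 6, 0 and 6 reads in Th17 KO and on 17, 9 and 1 reads in Th17 WT. The 0 in Th17 KO 2 allows up to 3.15 CPM, so the gap between these ranges is not resolved. The Samhd1 call in Th1 was lost without any 1 of Th1 KO 1, Th1 KO 2, Th1 WT 2 or Th1 WT 3 (adjusted p up to 0.0873), and the Casp4 call with DESeq2 or without Th1 KO 2, Th1 WT 1 or Th1 WT 2 (up to 0.16). The Tlr7 call was lost in 7 of 18 alternatives, including without Th17 KO 1, Th17 KO 2, Th17 KO 3, Th17 WT 2 or Th1 WT 2, and its value was -2.56 without Th17 WT 1.

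Interferon signalling genes, which include the known inducers of the family, were counted next. Of 20 genes, all tested, 10 were higher and 3 lower in Th17 than in Th1 cells in KO, and 10 higher and 5 lower in WT. The shares of all tested genes were 26.9% higher and 26.7% lower in KO, and 23.5% and 23.6% in WT. Ifng, the cytokine of Th1 cells, had 59.3, 38.9 and 66.9 CPM in Th17 KO and 174, 178 and 233 CPM in Th17 WT, against 784, 547 and 611 CPM in Th1 KO and 929, 657 and 658 CPM in Th1 WT. Its log2 fold change of Th17 over Th1 was -3.43 ± 0.24 in KO and -1.99 ± 0.22 in WT (edgeR adjusted p = 2.65e-06 and 8.6e-05). The receptor chain Ifngr1 was lower too, with -1.61 ± 0.07 in KO and -1.14 ± 0.07 in WT (adjusted p = 8.46e-16 and 1.15e-12). The other receptor chain, Ifngr2, was higher in Th17 cells, at 7.35 to 10 CPM in Th17 KO and 4.15 to 6.72 CPM in Th17 WT, against 0.662 to 1.45 CPM in Th1 KO and 0 to 0.363 CPM in Th1 WT (log2 fold changes of 3.28 ± 0.28 in KO and 5.03 ± 0.44 in WT, adjusted p = 3.53e-10 and 7.36e-10). Its WT value rests on 5, 2 and 0 reads in Th1 WT and was 6.11 without Th1 WT 1 and 4.44 without Th1 WT 3. Jak2 (1.24 ± 0.08 in KO and 1.07 ± 0.08 in WT) and Stat3 (0.75 ± 0.06 and 0.74 ± 0.06) were higher in Th17 cells. Irf1 gave 0.13 ± 0.17 in KO (edgeR adjusted p = 0.569) and -0.52 ± 0.18 in WT (0.04). The WT call of Irf1 was lost in 10 of 20 alternatives. Anti-IFNg was in the Th17 medium alone, so its effect and that of the other additions cannot be told apart in any contrast of Th17 with Th1.

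Between genotypes in Th1 cells 4 of the 20 interferon genes were lower in KO and 1 was higher, beside 2.92% lower and 1.69% higher among all tested genes. Usp18, a brake on type I interferon signalling that interferon induces, had 7.84, 5.56 and 9.69 CPM in Th1 KO, against 29.1, 21.9 and 31.7 CPM in Th1 WT, a log2 fold change of -1.85 ± 0.20 (edgeR adjusted p = 8.89e-05). Usp18 and Klrk1 lie on the same chromosome, at chr6:121245906-121270917 and chr6:129610323-129623864. Whether DNA near Klrk1 that differs between KO and WT mice has a part in the Usp18 values of either cell type was not tested. Socs3 gave -0.46 ± 0.07 (adjusted p = 0.000329). The exception in direction was Ifngr2 (2.45 ± 0.55, adjusted p = 0.00777), a call lost without Th1 KO 3 (0.0613) and a value of 3.53 without Th1 WT 1 and 1.86 without Th1 WT 3. Irf1, a factor that binds interferon response elements, gave -0.47 ± 0.17 (0.192) and Ifng -0.21 ± 0.20 (0.703).

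In Th17 cells 5 of the 20 were lower in KO and none was higher, beside 4.02% lower and 1.81% higher among all tested genes. They included Ifngr1 (-0.62 ± 0.07, edgeR adjusted p = 3.77e-06), Ifng (-1.66 ± 0.24, 0.00566), Usp18 (-1.60 ± 0.30, 0.00616) and Socs3 (-0.36 ± 0.09, 0.0127). The calls of Ifng and Usp18 were lost without the 3 shallow libraries, and that of Usp18 also with limma-voom (adjusted p up to 0.16), and that of Socs3 without Th17 KO 3 or Th17 WT 1 (up to 0.131). Irf1 gave 0.17 ± 0.18 (edgeR adjusted p = 0.715).

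Markers of other cells were measured beside these groups because antigen-presenting cells shared the cultures and myeloid cells express many PYHIN genes. Of 12 myeloid markers 11 were detected and Clec9a was at 0 in every library. Their sum was 8.48 to 10.5 CPM in Th17 KO, 7.27 to 8.81 CPM in Th17 WT, 7.23 to 8.56 CPM in Th1 KO and 6.11 to 7.84 CPM in Th1 WT. Lyz2 had at most 1.05 CPM and Csf1r at most 0.254 CPM, while Cd68 reached 5.25 CPM, Flt3 3.16 CPM and Cd14 1.71 CPM. Cd14 and Flt3 were higher in Th17 WT than in Th1 WT (log2 fold changes of 1.89 ± 0.62 and 1.10 ± 0.37, edgeR adjusted p = 0.0148 and 0.0158). Neither passed in KO (0.156 and 0.0811), and Cd68 passed at neither genotype. The 6 B cell markers, all detected, summed to 2.96 to 5.54 CPM in Th17 KO, 0.932 to 1.58 CPM in Th17 WT, 0.278 to 0.969 CPM in Th1 KO and 0.208 to 0.313 CPM in Th1 WT. The sums of the myeloid and the B cell markers had their highest range in Th17 KO and their lowest in Th1 WT. Of 3 NK cell markers Ncr1 was at 0 in every library and the sum was at most 0.396 CPM, and the CD8 T cell markers Cd8a and Cd8b1 summed to between 1.04 and 6.61 CPM. Mitochondrial genes took 19% to 20.8% of the counts outside the dominant ID in Th17 KO, 16.9% to 18.6% in Th17 WT, 14.6% to 15.1% in Th1 KO and 14.2% to 14.8% in Th1 WT, and their part in the family's levels was not tested.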

How the data were processed

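The authors deposited raw read counts, 1 table of Ensembl gene IDs for each library. The values are whole numbers with a different sum in each library, as in unscaled counts, though values rounded after scaling could look the same. Poly-A RNA was turned into cDNA with a template-switching kit, tagmented and sequenced as pairs of 75-base reads, per the labels' protocols. The tools named in the submitters' processing notes are TopHat2, Bowtie2 and featureCounts, and the build is GRCm38. Their versions, the strand setting and the counting of reads with several matches are not given in the sources used here. Names came from GENCODE M21, which matched 37693 of the 39179 IDs (96.2%), and promoters from RefSeq.

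Groups came from the sample titles. Replicate numbers follow the order of deposit and are only names. Counts were scaled by TMM, filtered with filterByExpr and tested with edgeR 4.0.16 (quasi-likelihood F-test, robust, all 12 libraries in 1 fit of 4 groups) in R 4.3.3, with Benjamini-Hochberg adjustment over 12189 genes in each of 5 comparisons and a threshold of 0.05. Fold changes are on the log2 scale, the first-named group over the second, with SE taken from the F statistic and 95% intervals of 1.96 SE. With 3 libraries against 3 an exact permutation test could not go under p = 0.1. Log2 CPM for correlations used a prior count of 2. Alternatives were RLE size factors, DESeq2 1.42.0, limma-voom (limma 3.58.1) with sample weights, no low-count filter, only the groups compared, each library left out, the 3 shallow libraries left out or given a term, and counts without the dominant ID. Tests were tried on simulated counts with 200 changed genes, with the same spread set for every gene and library. The outcome is not given here and lends no weight to the calls. Alignments used Biopython 1.88 and figures matplotlib 3.10.9 in Python 3.11.15.

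The members, the lists of sensing, interferon and marker genes, and the tests were chosen with earlier results of these data known. Genes to be named were all members, the other PYHIN genes, up to 4 genes of smallest p past the threshold per list and comparison, 7 partner genes whatever their p (Pycard, Casp1, Gsdmd, Cgas, Tmem173, Irf1 and Ifng), and the 5 genes of highest likeness. Not every one of them is given for every comparison. Il1b and the genes ranked 6 to 10 by likeness were chosen after their values were seen. The letters of the shared promoter string were found by searching these promoters. Another 2 listed genes are not reported here and enter no list count.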

Additional observations from a re-analysis of the deposited data

Results flagged for a closer look

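In 2 genes outside the family but on the sensing and interferon lists, the genotype difference in Th17 cells departed from that in Th1 cells by edgeR's interaction test. For Casp1 the log2 fold changes of KO over WT differed by 0.62 (adjusted p = 0.0147), being 0.23 in Th17 and -0.38 in Th1. For Ifngr1 they differed by -0.47 (adjusted p = 0.022), being -0.62 in Th17 and -0.15 in Th1. The interaction call of Casp1 was lost without Th17 KO 3 and without the 3 shallow libraries, with an adjusted p of up to 0.0902. That of Ifngr1 was lost without any 1 of Th17 KO 3, Th17 WT 1, Th1 KO 1, Th1 KO 2 or Th1 WT 3 and without the shallow libraries (adjusted p up to 0.103).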

How the results depend on the processing

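The count of listed genes past the threshold was 8 between Th17 and Th1 in KO under all 20 alternatives, and 8 in WT except for 7 without Th17 WT 1. The interaction count was 0 throughout. Between genotypes in Th17 the count of 0 became 2 with DESeq2 and 3 without the low-count filter, and ran from 0 to 2 with 1 library left out. In Th1 the count of 3 became 2 with DESeq2, 4 without the shallow libraries, 7 with limma-voom, 5 without the filter, 5 with only the Th1 groups and 7 when a term marked the shallow libraries, and ran from 2 to 6 with 1 library left out. The cause was not tested. Over 118 gene results and 2331 values under alternatives, 2214 stayed on their side of the threshold, 74 lost a call, 43 gained one and 0 turned round with a call. A change of sign with neither value past the threshold occurred in 70 of the 2214. No paired analysis was possible because the labels give no replicate numbers. Depth limits the low genes in the Th17 groups, where 1 read equals 1.05 CPM in Th17 KO 2 and 1.04 CPM in Th17 WT 3. Reads shared between genes of the family could not be reassigned from counts.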
